A study of Mus musculus with 10 samples.

Results

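Testis RNA taken 7.5 h after trichostatin A (TSA) was compared with testis RNA taken 5 h after TSA, across all probes of the array. The comparison used the 4 arrays whose titles name these 2 times, of 10 arrays in the series, and the control arrays did not enter it. The TSA 7.5 h group and the TSA 5 h group were each 3 male BALB/c mice, 9 weeks old, which had received 1 subcutaneous injection of 60 µg TSA per mouse in a carrier of dimethylsulfoxide and PBS. The other mice of the series were killed 2.5 h or 10 h after the same dose, or 10 h after carrier alone (control), so that 15 mice formed 5 groups. The 3 RNAs of each group were combined into 1 pool, which was hybridised to 2 CodeLink 1-channel arrays. The duplicate arrays are technical and each time is 1 pool (n = 1), so no test between the times was possible, no p-value is given, and differences between mice were not measured. Neither time had a carrier group killed at the same hour.

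TSA blocks the zinc-dependent histone deacetylases, enzymes that remove acetyl groups from histone tails. Acetylated histones mark open chromatin, and in the testis a wave of histone acetylation precedes the replacement of histones by protamines in elongating spermatids. Liver parenchymal cells, the hepatocytes, make most of the proteins of blood plasma: albumin, apolipoproteins, transport proteins, protease inhibitors and clotting factors. Their genes are held on in the liver by a small set of regulators, among them HNF1 and HNF4, and several plasma protein transcripts are also found at lower levels in other tissues.

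The deposited values are linear normalised intensities, whose median was 1.00 on every array. Per-array intensities are given as deposited, pool means are geometric means of the 2 arrays, and differences are log2 values, 7.5 h minus 5 h. The error after ± is the standard error from the duplicate arrays and covers array error only. Probes in the lowest 25% by mean log2 intensity over the 4 arrays were left out, which left 7423 of 9897 probes with values. The intensity at this limit was 0.206, called the dim limit below. Where a pool mean was under it, the fold is given as a bound against that limit. A probe met the size rule where the pool means differed at least 2-fold and both arrays of one pool lay beyond both arrays of the other. Duplicates were over 2-fold apart for 52 probes in the 7.5 h pool, against 11 in the 5 h pool. A single array had a standard deviation of 0.164 at 7.5 h and 0.0934 at 5 h on the log2 scale. Germ cell transcripts were present in every pool: all 24 round spermatid and all 19 elongating spermatid markers with values were above the dim limit. Whether a pool held other tissue beside testis was not tested. The 19 elongating spermatid markers summed to intensities of 1683 and 1655 on the 7.5 h arrays, against 1670 and 1698 on the 5 h arrays. The 5 h pool stood apart from the other pools in one group of genes, the liver transcripts described below.

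Between the 2 times, 82 probes met the size rule (1.1%). Of these, 75 were lower at 7.5 h (1.01% of those tested) and 7 were higher at 7.5 h (0.0943%). The median difference over all tested probes was 0.02. Of the 75 lower probes, 50 belonged to genes of 7 lists of liver transcripts, 19 to other named genes, and 6 had no gene symbol. The differences were large: with a 7.5 h pool under the dim limit set to that limit, which touched 42 of the 75, 41 were at least 4-fold lower, 16 at least 16-fold and 4 at least 64-fold. Without the filter on dim probes, 206 probes were lower (2.08%) and 172 were higher (1.74%). A probe can pass the filter through a bright 5 h pool alone. With the filter set over all 10 arrays instead, a setting chosen with the results in view, 48 probes were lower, 32 of them in the liver lists, and 7 were higher. Of these, 47 lower and 5 higher probes were among the 75 and the 7, and S100a8 and Cbfa2t3 dropped out of the higher ones.

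**Figure D1:**
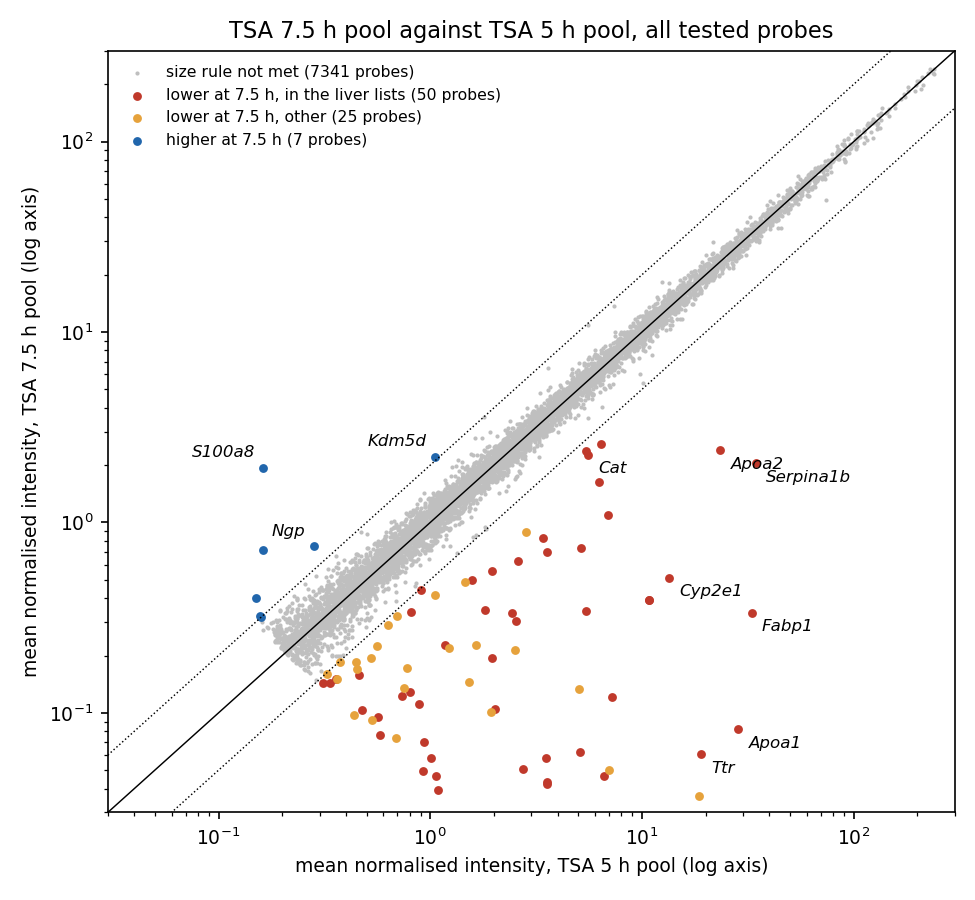
Mean intensity of each tested probe in the TSA 7.5 h pool (vertical, log axis) against the TSA 5 h pool (horizontal, log axis), with the line of equality and dotted lines at 2-fold. The 75 lower probes, 50 of them in the liver lists (red), reach far below the line, while 7 probes lie above the upper dotted line and the bulk of the array follows the line of equality.

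The 7 liver lists held 194 genes, of which 149 had values and 97 passed the filter. Among the 97 genes, 50 were lower at 7.5 h and 0 were higher, beside 69 lower (1.05%) and 5 higher (0.0761%) of 6571 tested genes counted with 1 probe each. Without the filter, 69 of the 149 genes were lower and 3 higher, beside 183 (2.09%) and 143 (1.64%) of 8738 genes. The median difference over the 149 genes was -0.82, against 0.01 over the 8738. The number of these 149 genes above the dim limit was 69 in the control pool, 71 at 2.5 h, 113 at 5 h, 68 at 7.5 h and 73 at 10 h. Of all 8738 genes it was 6594, 6614, 6611, 6549 and 6624 in the same order. Over the 8738 genes the summed intensity was 55888.9 and 55865.7 on the 7.5 h arrays, against 55926.8 and 55901.5 on the 5 h arrays. The deposited values were quantile normalised, so these totals and counts over all 8738 genes could hardly differ between arrays or pools. The summed intensity of the 149 genes was 359.6 and 350.9 on the 7.5 h arrays, against 636.5 and 631.7 on the 5 h arrays. It was 351.4 and 356.9 on the control arrays, 402 and 382 at 2.5 h, and 383.2 and 382.9 at 10 h. In pooled tissue RNA, fewer cells of a type and less RNA per cell cannot be told apart, and which cells these transcripts came from was not tested. Albumin (Alb), the most abundant plasma protein, was not analysed here.

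Apolipoproteins and lipid carriers held the largest single difference among the liver lists, that of Apoa1. Of 14 genes with values, 13 passed the filter, 10 of these were lower and none was higher, with a median of -2.99. Apoa1 (probe 7028, chromosome 9), the main protein of high-density lipoprotein, had intensities of 0.0708 and 0.096 on the 7.5 h arrays, against 28.5 and 28.5 on the 5 h arrays. That is at least 138-fold lower, since the 7.5 h pool was under the dim limit. Apoa2 (probe 1173, chromosome 1), another protein of the same particle, had 2.39 and 2.41 at 7.5 h, against 23.4 and 23.4 at 5 h. It was 9.75-fold lower, with a difference of -3.29 ± 0.0063. Both pools were bright for Apoa2, so its fold does not rest on a dim value. Fabp1 (probe 7341, chromosome 6), the fatty acid binding protein of hepatocytes, had 0.383 and 0.295 at 7.5 h, against 33.8 and 32.1 at 5 h, a difference of -6.61 ± 0.19. The duplicates of each pool stood close together and the pools did not overlap for any of these 3 genes.

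The other apolipoproteins of the list followed with smaller or bounded folds. Apoc3, an inhibitor of lipoprotein lipase, was at least 32.2-fold lower at 7.5 h, and Apoc2, the activator of the same enzyme, at least 9.47-fold. Apoc4 was at least 4.5-fold lower and Apom, the carrier of sphingosine 1-phosphate, at least 3.9-fold. Lcat, which esterifies cholesterol on lipoprotein particles, had 0.579 and 0.534 at 7.5 h, against 1.98 and 1.94 at 5 h, which is 3.53-fold lower. Apoc1 had 2.50 and 2.64 at 7.5 h, against 6.88 and 5.97 at 5 h, a 2.49-fold lower level, and its 2.5 h mean was 4.14. Azgp1, a zinc-binding plasma glycoprotein, was at least 4.29-fold lower, with 7.5 h duplicates of 0.247 and 0.0503 that lay on either side of the dim limit. The 3 members that passed the filter without meeting the size rule were Apoh (7.52 and 7.64 against 11.6 and 10.7), Apoa5 (0.85 and 0.744 against 1.07 and 1.07) and Mttp (0.361 and 0.357 against 0.473 and 0.344).

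**Figure D2:**
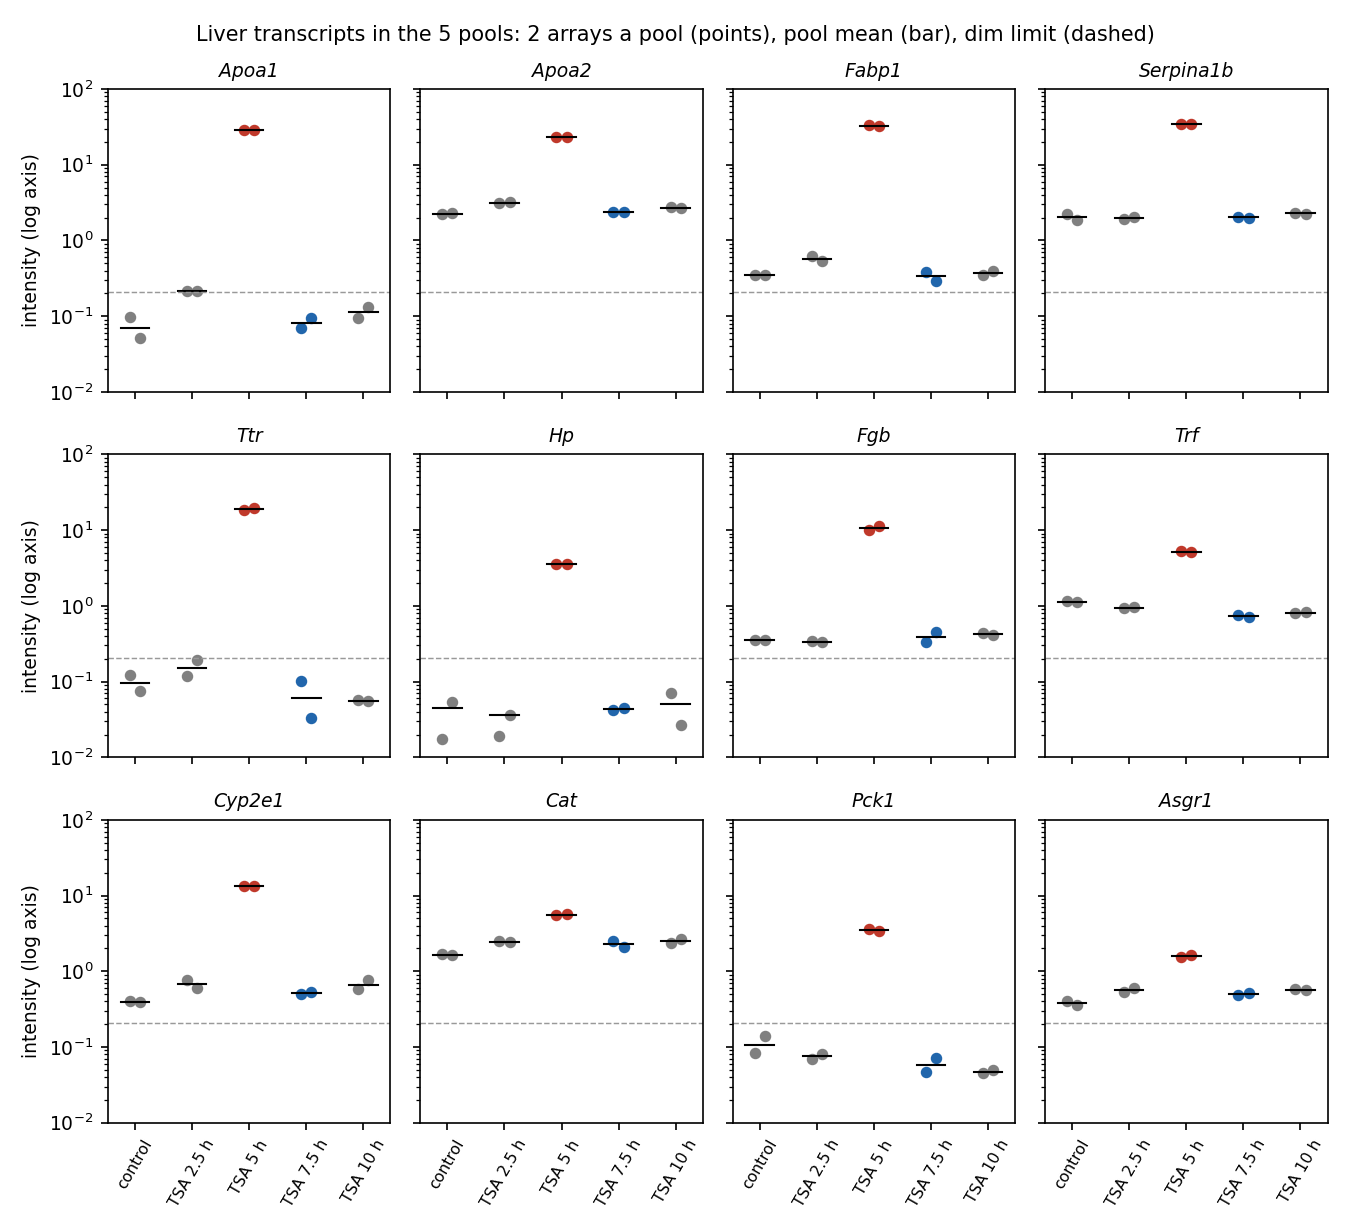
Intensity (log axis) of 12 liver transcripts in the control, TSA 2.5 h, 5 h, 7.5 h and 10 h pools. Points are the 2 arrays of a pool, bars the pool mean, and the dashed line the dim limit of 0.206. In each of the 12 panels the 5 h points lie above those of every other pool, and the 7.5 h points lie near those of the other 3.

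Serpins and protease inhibitors of plasma had the lowest list median over tested genes, -4.03. Without the filter their median was -2.86, close to the -2.82 of apolipoproteins and lipid carriers. Of 16 genes with values, 10 passed the filter, 9 of these were lower and none was higher, and without the filter 13 of the 16 were lower. Serpina1b (probe 5685, chromosome 12), an alpha-1-antitrypsin that inhibits neutrophil elastase, had 2.07 and 2.01 at 7.5 h, against 34.4 and 34.4 at 5 h. It was 16.9-fold lower, with a difference of -4.08 ± 0.023. Its paralogs on the same chromosome were lower too. Serpina1e had 0.359 and 0.326 at 7.5 h, against 5.28 and 5.59 at 5 h. Serpina1d had 0.0907 and 0.163 at 7.5 h, against 7.62 and 6.82 at 5 h, at least 35-fold lower. These genes are near-identical copies, and whether each probe separates them was not tested, so they do not count as independent.

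The promoters of the Serpina1 genes share sequence as well, as the windows of 120 bases upstream below show. They were taken from RefSeq promoters on GRCm38.p6, are written 5′ to 3′ on the gene's strand, and lie within 250 bases upstream of the annotated start. Capitals mark GTTAAT or its reverse complement ATTAAC, the core of the motif bound by the liver regulator HNF1, and the sequences are shown because the motif recurs in this set.
Serpina1b (chr12:103738190-103738309, minus strand): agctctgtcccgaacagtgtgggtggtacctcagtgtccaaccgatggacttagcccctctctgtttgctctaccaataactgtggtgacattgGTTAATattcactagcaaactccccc
Serpina1d (chr12:103773634-103773753, minus strand): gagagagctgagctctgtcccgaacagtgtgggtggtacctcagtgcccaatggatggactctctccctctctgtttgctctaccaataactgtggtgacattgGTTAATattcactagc
Serpina1e (chr12:103956898-103957017, minus strand): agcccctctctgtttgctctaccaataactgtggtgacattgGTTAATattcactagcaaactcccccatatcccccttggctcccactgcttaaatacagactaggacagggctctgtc
Fga (chr3:83026033-83026152, plus strand): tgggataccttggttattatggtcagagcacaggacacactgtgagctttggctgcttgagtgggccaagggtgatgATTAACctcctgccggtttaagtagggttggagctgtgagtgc
Fgb (chr3:83049864-83049983, minus strand): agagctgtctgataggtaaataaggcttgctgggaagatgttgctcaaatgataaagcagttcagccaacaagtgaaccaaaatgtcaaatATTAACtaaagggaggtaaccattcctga
Fabp1 (chr6:71199759-71199878, plus strand): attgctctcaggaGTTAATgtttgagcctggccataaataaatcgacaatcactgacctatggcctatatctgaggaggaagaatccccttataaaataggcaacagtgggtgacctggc

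Aligned without gaps, the Serpina1b and Serpina1e windows were identical over 68 of 68 shared bases, and the Serpina1b and Serpina1d windows over 103 of 110. Of the 50 liver-list genes that were lower at 7.5 h, 40 had a promoter in the table, and 11 of the 40 (27.5%) held GTTAAT on either strand within 250 bases upstream. The same letters stood in 228 of 5323 promoters of tested genes (4.28%) and in 1762 of all 27025 promoters (6.52%). The 11 genes were Pck1, Fga, Fgb, Fabp1, Pzp, Slco1b2, Apoc2, Vtn, Serpina1b, Serpina1d and Serpina1e. The Serpina1 genes among them share their sequence, so they are not independent hits. No share was taken over liver-list genes that were not lower, so the motif cannot be tied to the difference between the times. The longer palindrome (GTTAAT, 1 base of any kind and ATTAAC) was in 0 of the 40, 0 of the 5323 and 2 of all promoters. This is a description of letters in a window and was not tested. The array carries no measure of HNF1 binding.

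Among the other inhibitors, Serpinc1, which codes for antithrombin, was at least 17.2-fold lower at 7.5 h. Kng1, the kininogen precursor of bradykinin, was at least 13.3-fold lower. Ahsg, or fetuin-A, an inhibitor of calcification, had 0.407 and 0.374 at 7.5 h, against 10.9 and 10.7 at 5 h, a 27.7-fold lower level. Its relative Fetub was at least 3.58-fold lower. Ambp, the precursor of bikunin, had 0.655 and 0.606 at 7.5 h, against 2.63 and 2.58 at 5 h, or 4.14-fold lower. Itih2, which carries bikunin in plasma, was at least 1.63-fold lower and met the rule through 1 array. Its 7.5 h arrays read 0.302 and 0.0678, against 0.369 and 0.305 at 5 h, and without array 2 of the 7.5 h pool the difference was -0.15. Serpinf2 did not meet the rule, with 0.232 and 0.428 at 7.5 h against 0.287 and 0.299 at 5 h.

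Plasma carriers and acute phase proteins were lower in 10 of 12 tested genes, with a median of -2.62, and in 13 of 19 without the filter. Ttr (probe 609), the carrier of thyroxine and of the retinol complex, had 0.100 and 0.0334 at 7.5 h, against 18.4 and 19.6 at 5 h, at least 92.1-fold lower. Rbp4, which carries retinol, had 1.06 and 1.12 at 7.5 h, against 7.09 and 6.75 at 5 h, 6.35-fold lower. Trf, the iron carrier transferrin that Sertoli cells also make, had 0.757 and 0.709 at 7.5 h, against 5.25 and 5.10 at 5 h, 7.06-fold lower. For the last 2 genes both pools were well above the dim limit. Haptoglobin (Hp), which binds free haemoglobin, was at least 17.2-fold lower, and hemopexin (Hpx), which binds haem, was 5.08-fold lower (0.766 and 0.639 against 3.55 and 3.55). Hamp, the iron hormone hepcidin, had 0.358 and 0.311 at 7.5 h, against 2.43 and 2.45 at 5 h. Orm1, an acid glycoprotein of the acute phase, was at least 9.84-fold lower, Pzp, a broad protease trap, at least 2.74-fold, and Igfals, which holds insulin-like growth factors in plasma, at least 1.5-fold. Rnase4, a secreted ribonuclease, had 2.30 and 2.44 at 7.5 h, against 5.46 and 5.39 at 5 h. Not all acute phase genes differed by 2-fold: Crp had 2.41 and 2.42 at 7.5 h against 2.45 and 2.60 at 5 h, and Saa1 had 0.269 and 0.352 against 0.525 and 0.508.

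In the coagulation and complement list 7 of 14 tested genes were lower at 7.5 h, with a median of -0.65, and 13 of 25 without the filter. The fibrinogen chains, which assemble into the clot protein, were lower together. Fgb had 0.338 and 0.458 at 7.5 h, against 10.0 and 11.5 at 5 h, a difference of -4.77 ± 0.24. Fga was at least 24.7-fold lower and Fgg at least 5.16-fold. Vtn, the adhesive protein vitronectin, had 0.373 and 0.247 at 7.5 h, against 2.50 and 2.60 at 5 h. Hrg, a histidine-rich plasma protein, was 5.19-fold lower and the complement component C4b 2.4-fold. With an offset added before the logarithm C4b was at -0.89 and F10 at -0.77, and neither met the rule. F10, clotting factor X, met the rule narrowly at 2.06-fold (0.447 and 0.435 against 0.934 and 0.88), and its difference was -0.998 without array 1 of the 5 h pool, which missed the rule. The other 7 tested genes had differences from -0.26 (F12) to -0.01 (Hc). Among them C8g had 8.08 and 8.49 at 7.5 h against 8.73 and 9.11 at 5 h, and F5 had 5.87 and 5.10 against 6.56 and 5.93.

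In the list of amino acid, urea and sugar enzymes, 4 of 14 tested genes were lower, with a median of -0.36. Pck1, the key enzyme of gluconeogenesis, had 0.0467 and 0.072 at 7.5 h, against 3.60 and 3.45 at 5 h, at least 17.1-fold lower. Gnmt, which uses up S-adenosylmethionine, had 0.763 and 0.891 at 7.5 h, against 3.37 and 3.48 at 5 h, 4.15-fold lower. Tdo2, which opens the ring of tryptophan, was at least 5.3-fold lower and Mat1a, which makes S-adenosylmethionine in liver, at least 2.82-fold. The brightest members did not meet the rule. Fbp1, a gluconeogenic enzyme, had 115 and 111 at 7.5 h against 101 and 106 at 5 h. Ass1, of the urea cycle, had 11.8 and 11.6 against 15.0 and 15.3, and Bhmt, which remethylates homocysteine, had 3.97 and 4.11 against 5.14 and 5.12.

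In the detoxification and bile acid list 8 of 22 tested genes were lower, with a median of -0.34, and without the filter 10 of 34 were lower and 2 higher. Cyp2e1, which oxidises ethanol, had 0.5 and 0.527 at 7.5 h, against 13.4 and 13.5 at 5 h, 26.2-fold lower. Cyp2f2 had 1.65 and 1.61 at 7.5 h, against 6.22 and 6.37 at 5 h, and Cyp2c29 had 0.199 and 0.26 against 1.20 and 1.16. Cat, the peroxisomal enzyme catalase that most tissues express, had 2.48 and 2.07 at 7.5 h, against 5.50 and 5.65 at 5 h. Bounds were at least 4.55-fold for Slco1b2, an uptake transporter of hepatocytes, at least 4.87-fold for Rgn, at least 2.24-fold for the urate oxidase Uox, and at least 1.75-fold for Cyp1a2. Cyp1a2 had a difference of -0.66 without array 1 of the 7.5 h pool and did not then meet the rule. With an offset added before the logarithm Uox was at -0.84 and Cyp1a2 at -0.63, and neither met it. Just outside the rule stood Abcb11, the bile salt export pump, with 1.01 and 0.881 at 7.5 h against 1.83 and 1.81 at 5 h, a difference of -0.94. The 2 brightest genes of the list did not meet the rule: Gstm1 had 38.3 and 37.4 against 38.1 and 37.9, and Aldh1a1 had 88.5 and 85.9 against 97.7 and 91.4.

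Regulators and hepatocyte surface genes were lower in 2 of 12 tested genes, with a median of -0.26. Asgr1, a subunit of the asialoglycoprotein receptor of hepatocytes, had 0.488 and 0.509 at 7.5 h, against 1.54 and 1.62 at 5 h, 3.17-fold lower. Krt18, a keratin of simple epithelia, was at least 2.3-fold lower. The tested transcription factors of the list did not meet the rule in either direction. Hnf4a had 0.424 and 0.325 at 7.5 h against 0.423 and 0.35 at 5 h, Cebpa had 0.92 and 0.817 against 0.65 and 0.688, and Foxa1 had 1.38 and 1.47 against 1.19 and 1.26. Foxa3 came nearest, with 0.262 and 0.153 against 0.368 and 0.363.

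Genes outside the liver lists that were lower at 7.5 h are named here after their values were seen, apart from Mug1. Mug1, a murinoglobulin and relative of alpha-2-macroglobulin, had 0.0902 and 0.197 at 7.5 h, against 5.05 and 5.00 at 5 h, at least 24.4-fold lower. Inmt, a methyltransferase of small amines, was at least 9.41-fold lower, and H2-Q10, a secreted class I molecule of the mouse, was 11.7-fold lower (0.244 and 0.189 against 2.46 and 2.55). Slc27a2 and Slc27a5, which activate fatty acids and bile acids, were 7.32-fold and 3.03-fold lower. Nudt7, a peroxisomal coenzyme A hydrolase, had 0.878 and 0.913 at 7.5 h, against 2.88 and 2.77 at 5 h. Akr1c20, Hsd3b5, Haao, Pcbd1, Cyp2c40, Cyp2c39, Lect2, Mug2 and Cpn1 also met the rule. Mug2 and Lect2 did not meet it without array 2 and without array 1 of the 7.5 h pool, at -0.81 and -0.82. Igfals, of the plasma list, was likewise at -0.76 without array 1. The probe with the largest measured difference, number 4088, has no gene symbol. It had 0.0134 and 0.026 at 7.5 h, against 18.3 and 18.8 at 5 h, at least 90.1-fold lower. The remaining named genes were Txk, Csn1s2a, Sgk2 and Sec61a1, with differences from -1.33 to -1.02. Sgk2 and Sec61a1 were under the dim limit at 7.5 h, with bounds of at least 1.58-fold and 1.81-fold lower. Txk, Sgk2 and Sec61a1 no longer met the rule when 1 array was left out, with values between -0.94 and -0.84. At the edge of the rule, Sec61a1 stood just inside at -1.02, and Spp2, Slc38a2, Mpv17 and Abcb11 just outside at -0.98, -0.96, -0.95 and -0.94.

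The other 3 pools were set beside both pools. The 75 lower probes were chosen for a 5 h pool above the 7.5 h pool, and some passed the filter through a bright 5 h pool alone. A high place of the 5 h pool among the 75 is thus partly built in. For 71 of the 75 the 5 h pool was above the control, 2.5 h and 10 h pools, beside 924 of all 7423 tested probes. The 4 exceptions were Itih2, Txk, Sec61a1 and probe 4246. The 5 h pool was at least 2-fold from the mean of the other 3 for 66 of the 75, and the 7.5 h pool for 6 of the 75. These 2-fold counts were not made over all tested probes, so they have no share to stand beside. The 7.5 h pool was below all 3 others for 30 of the 75, beside 1180 of all 7423 tested probes. By gene and with no filter, the 5 h pool was above the other 3 in 96 of the 149 liver-list genes with values, beside 1175 of 8738 genes. Among tested genes, some of which entered through a bright 5 h pool, the counts were 64 of 97, beside 840 of 6571 (12.8%). With the filter set over all 10 arrays they were 45 of 76, beside 808 of 6574. Apoa1 shows the pattern, with pool means of 0.0708 in the control, 0.216 at 2.5 h, 28.5 at 5 h, 0.0824 at 7.5 h and 0.113 at 10 h. Serpina1b had pool means of 2.04 in the control, 1.97 at 2.5 h, 34.4 at 5 h, 2.04 at 7.5 h and 2.27 at 10 h. Fgg differed from this pattern on the other side, since its control mean was 0.247, against 0.0798 at 2.5 h and 0.0754 at 10 h.

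**Figure D3:**
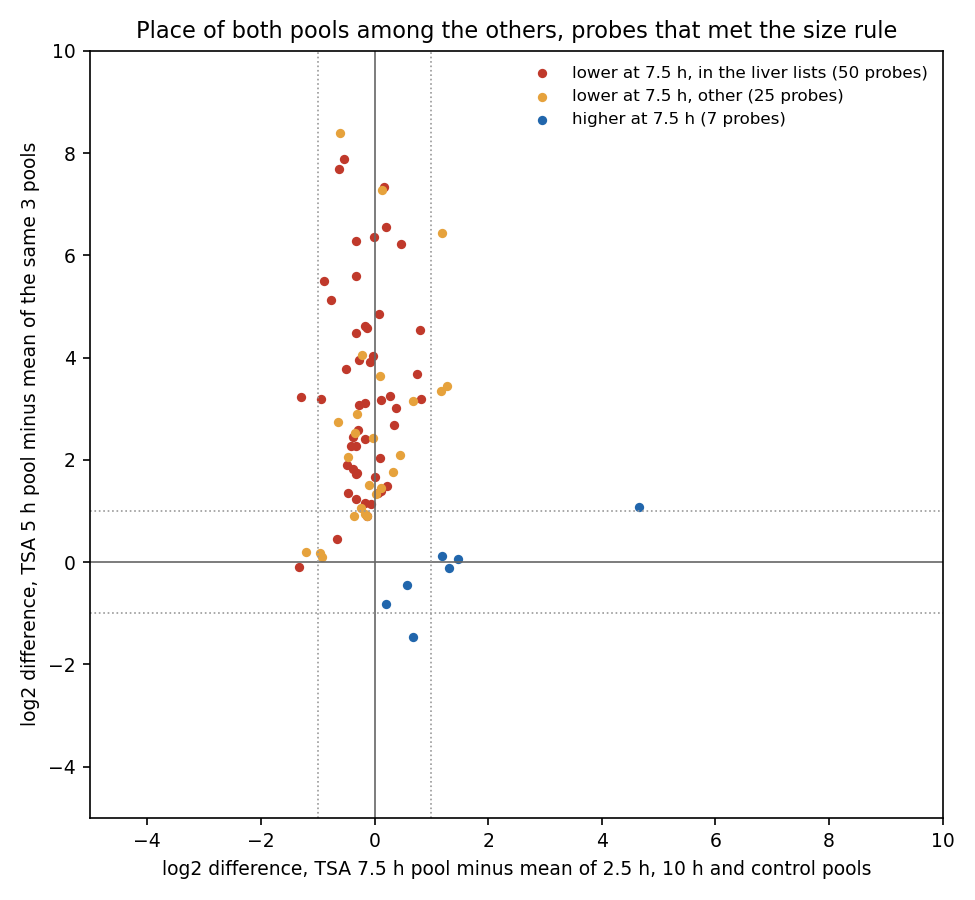
For the 82 probes that met the size rule, the log2 difference of the 5 h pool from the mean of the 2.5 h, 10 h and control pools (vertical) against that of the 7.5 h pool from the same mean (horizontal), with dotted lines at 2-fold. Lower probes spread upwards along the vertical axis. At 5 h 66 of the 75 lie at least 2-fold from the other pools, and at 7.5 h 6 of the 75. Of the 7 higher probes, 4 lie at least 2-fold to the right. All 82 were chosen for a gap between the 5 h and 7.5 h pools.

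The same rule was applied to the neighbouring steps, which share pools with this comparison. From 2.5 h to 5 h, 75 probes were higher at 5 h (1.01%) and 5 were lower (0.0674%), and 48 liver-list genes were among the higher ones. At 10 h against 7.5 h, 10 probes were higher (0.135%) and 12 lower (0.162%), with 1 liver-list gene higher and none lower. With the 5 h pool left out of the comparison, as 7.5 h against 2.5 h, 12 probes were higher (0.162%) and 19 lower (0.256%), and none was in a liver list.

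In the 28 other lists, no tested member was lower at 7.5 h by the rule and 1 was higher, S100a8 in the leukocyte list. Over all 6571 tested genes 69 were lower (1.05%), 50 of them in liver lists, and 5 were higher (0.0761%). Few genes outside the liver lists met the rule, so the absence of lower members sets the 28 lists little apart. Medians of the 28 lists ranged from -0.21 for Leydig cell markers to 0.40 for kidney tubule markers, of which 4 were tested. Without the filter 9 genes of the 28 lists were higher and 5 lower, beside 143 (1.64%) and 183 (2.09%) of 8738 genes. The 9 higher ones were S100a8, Cdkn2a, Kap, Reg3b, Ucp1, Cd8a, Hdac8, Per3 and Srebf1. All but S100a8 and Cdkn2a were under the dim limit in both pools. Cdkn2a, of the list often reported to respond to deacetylase inhibitors, had 0.2365 and 0.3312 at 7.5 h, against 0.0694 and 0.0599 at 5 h. The 5 lower ones were Hsd11b1, Neurog3, Apaf1, Junb and Cxcl1, and all but Hsd11b1 were under the dim limit in both pools. Within the testis, the Leydig cell list was negative in 11 of 13 tested genes, beside 3025 of 6571 tested genes. The Sertoli cell list was negative in 13 of 17, with a median of -0.10, and the peritubular myoid list in 4 of 13. Hsd11b1, which interconverts active and inactive glucocorticoids, did not pass the filter and had 0.0195 and 0.0655 at 7.5 h, against 0.3815 and 0.3983 at 5 h, at least 1.89-fold lower. Star, which brings cholesterol into the mitochondrion for steroid synthesis, had 1.79 and 1.66 at 7.5 h, against 2.54 and 2.57 at 5 h, a difference of -0.57 ± 0.054. Scarb1, the receptor for high-density lipoprotein, was at -0.43, Hsd3b6 at -0.38 and Hsd3b1 at -0.35. Star stood lower at 7.5 h than in any other pool, with means of 3.23 in the control, 3.03 at 2.5 h and 3.57 at 10 h. Star, Scarb1, Hsd3b6 and Hsd3b1 did not reach 2-fold.

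No tested germ cell marker met the size rule, beside 69 lower (1.05%) and 5 higher (0.0761%) of 6571 tested genes. Of the 69, 50 were in liver lists. The spermatocyte list had a median of 0.05 over 23 tested genes, 16 of them positive and 7 negative, with differences from -0.65 to 0.42. The lowest was Rec8, with 0.528 and 0.447 at 7.5 h against 0.7505 and 0.7697 at 5 h. On the positive side, Piwil1, a piRNA-binding protein of spermatocytes, had 10.2 and 9.82 at 7.5 h against 7.17 and 7.77 at 5 h. Among round spermatid genes the largest difference was that of Hspa1l, a chaperone of spermatids, with 1.73 and 1.78 at 7.5 h against 2.68 and 2.47 at 5 h, a difference of -0.55. Gpx4, a selenoenzyme of the sperm tail, had a mean of 103 at 7.5 h against 115 at 5 h. Spermatogonial genes had a median of 0.15 over 13, with Stra8, a gene of meiotic entry, at 5.40 against 4.63.

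**Figure D4:**
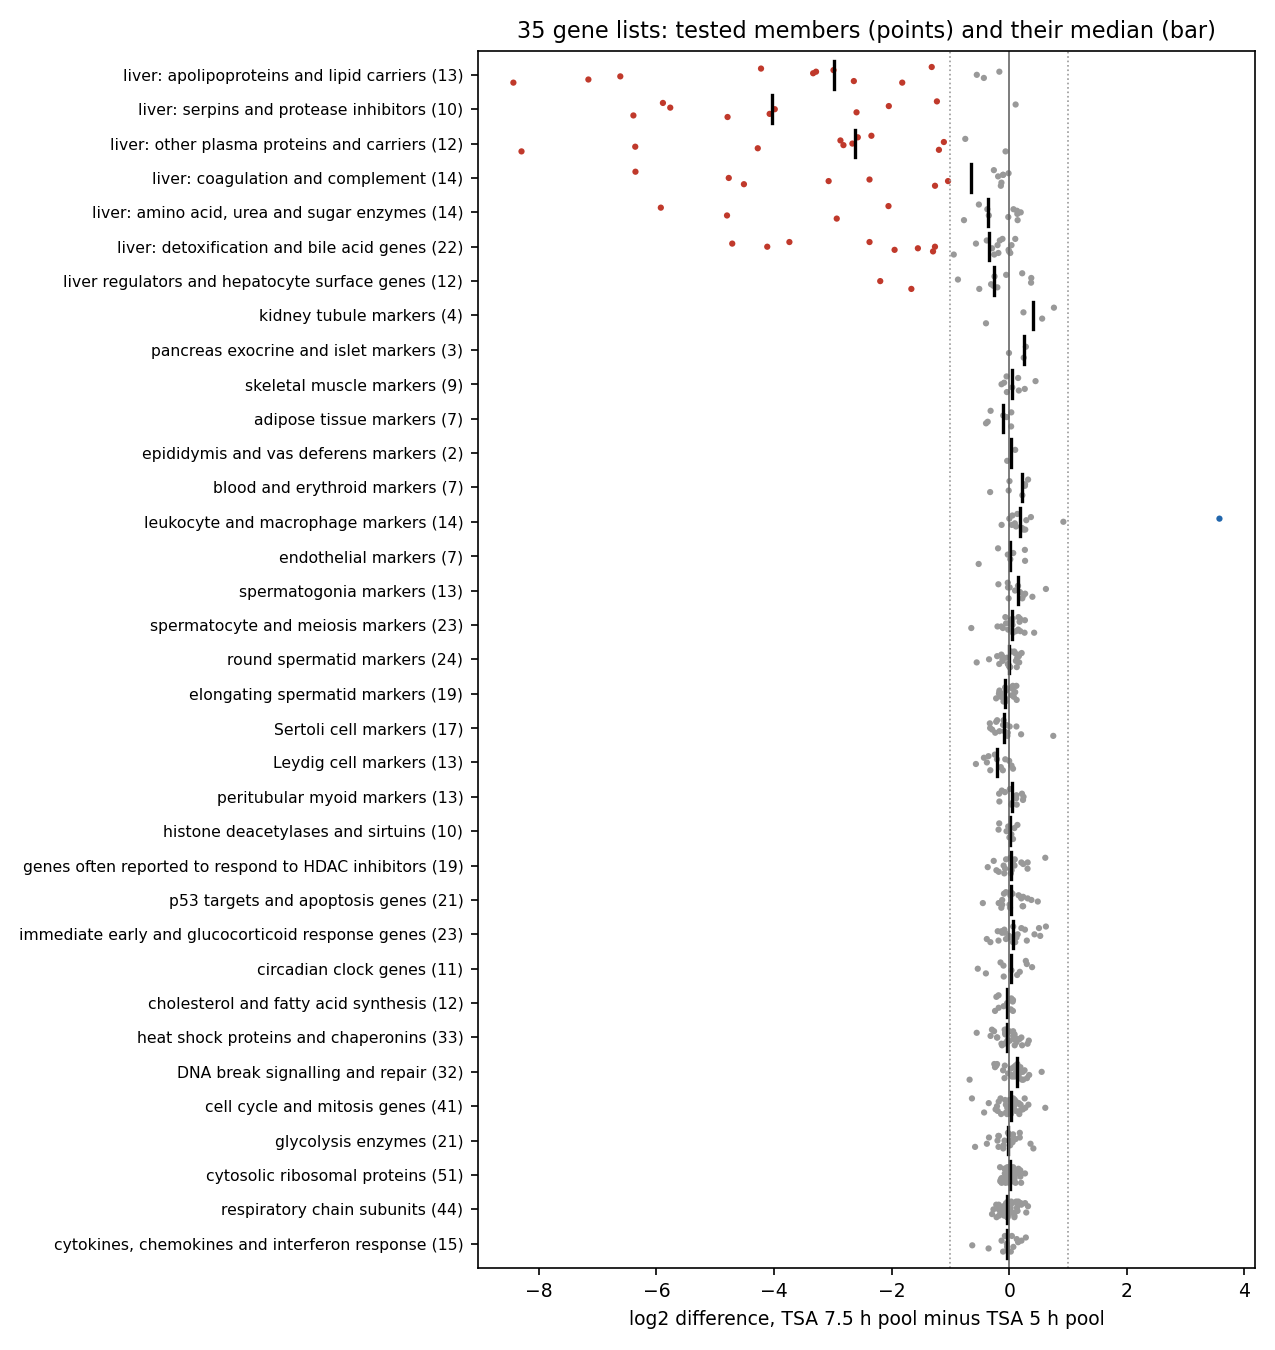
Log2 difference, TSA 7.5 h minus TSA 5 h, of every tested member of the 35 gene lists, with the number tested in parentheses, black bars at the list medians and dotted lines at 2-fold. Liver lists (top 7 rows) reach down to -8.43, and every other list stays within the dotted lines except for S100a8 in the leukocyte list.

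Higher levels at 7.5 h were few. S100a8 (probe 9840, chromosome 3), a calcium-binding protein that is abundant in neutrophils, had 1.97 and 1.90 at 7.5 h, against 0.328 and 0.0806 at 5 h, at least 9.39-fold higher. The 5 h duplicates were over 2-fold apart and both lay below the 7.5 h arrays. The difference was 3.57 ± 1.01, and it was 4.59 without array 1 and 2.56 without array 2 of the 5 h pool. S100a8 passed the filter through the 7.5 h pool alone: its other pool means were 0.0515 to 0.163, all under the dim limit, and it was left out when the filter was set over all 10 arrays. S100a8 is in the leukocyte list, and the 12 neutrophil genes with values, of 19 listed, were chosen after its value was seen. Ngp, a granule protein, had 0.674 and 0.837 at 7.5 h against 0.251 and 0.317 at 5 h, a difference of 1.41 ± 0.23. With an offset added before the logarithm Ngp was at 0.96 and did not meet the rule. Camp, another granule protein, did not pass the filter and had 0.456 and 0.461 at 7.5 h against 0.0571 and 0.0288 at 5 h, at least 2.22-fold higher. Ltf, which codes for lactoferrin, had 0.205 and 0.108 against 0.0585 and 0.0913 and both pools were under the dim limit. Without the filter these 4 of the 12 genes, S100a8 among them, met the rule as higher and none as lower, beside 143 of 8738 genes higher (1.64%). Ctsg had 0.792 and 0.822 against 0.708 and 0.663. Mpo, Elane, Prtn3, Mmp9, Csf3r, Cxcr2 and Itgam were under the dim limit in every pool, so the list gives no level for them. Whether neutrophils or blood in the 7.5 h pool took part in this difference was not tested. The 7 tested blood and erythroid markers had a median of 0.22, and Hba-a1, a haemoglobin chain, had a mean of 17.5 at 7.5 h and 17.5 at 5 h.

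**Figure D5:**
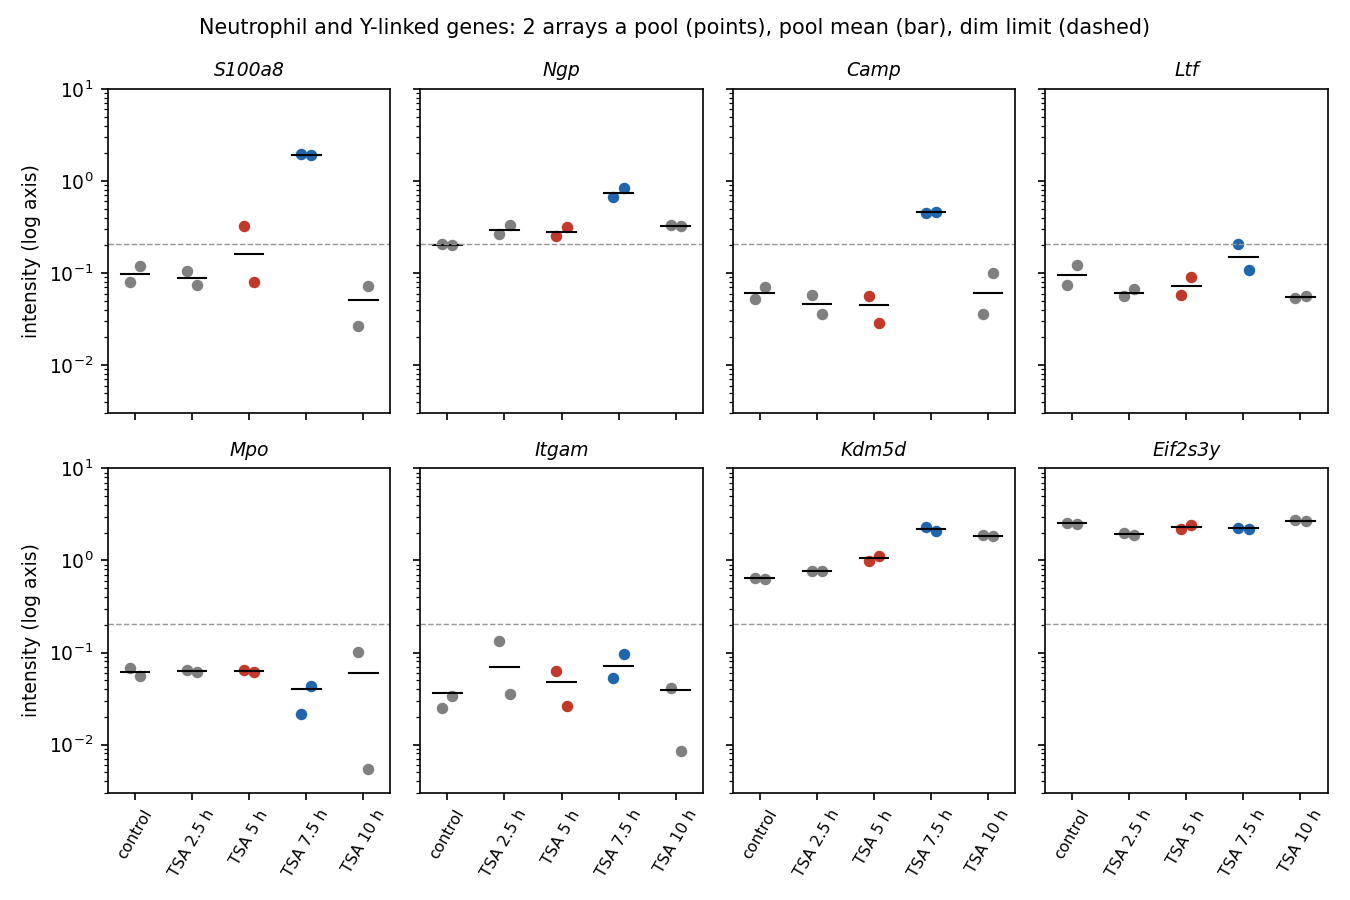
Intensity (log axis) of 6 neutrophil genes and 2 Y-linked genes in the control, TSA 2.5 h, 5 h, 7.5 h and 10 h pools. Points are the 2 arrays of a pool, bars the pool mean and the dashed line the dim limit of 0.206. S100a8, Ngp and Camp are highest in the 7.5 h pool, Mpo and Itgam stay under the limit in every pool, and Kdm5d is higher at 7.5 h and 10 h than in the other pools.

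Of the 5 higher probes with a gene symbol, only Kdm5d (probe 9414, chromosome Y), a histone H3 lysine demethylase, had a brighter pool above the median intensity of the tested probes. It had 2.33 and 2.10 at 7.5 h, against 0.985 and 1.13 at 5 h, a difference of 1.07 ± 0.13. Kdm5d pool means were 0.638 in the control, 0.765 at 2.5 h, 1.05 at 5 h, 2.21 at 7.5 h and 1.85 at 10 h. The call is narrow, since the difference was 0.99 without array 1 of the 7.5 h pool, 0.97 without array 1 of the 5 h pool and 0.93 with an offset added before the logarithm. The other Y-linked genes with values did not meet the rule. Eif2s3y, a translation initiation factor, had 2.25 and 2.21 at 7.5 h against 2.17 and 2.41 at 5 h, and Ssty1, a spermatid gene, had 9.48 and 9.94 against 9.66 and 10.1. Of the 7 probes, Cbfa2t3, Cts6 and the unnamed probes 2712 and 9581 were under the dim limit at 5 h. In that order, they were at least 1.95-fold, 1.56-fold, 3.49-fold and 1.55-fold higher at 7.5 h. Cbfa2t3 was at 0.92 without array 2 of the 7.5 h pool, Cts6 at 0.59 without array 1 and probe 9581 at 0.99 without array 2. For 6 of the 7 probes, which were chosen for being high at 7.5 h, the 7.5 h pool was above the control, 2.5 h and 10 h pools, beside 1269 of all 7423 tested probes. Probe 2712 was the exception, with a control mean of 12.8.

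A lower limit of 1.5-fold gave 68 higher probes (0.916%) and 133 lower probes (1.79%) at 7.5 h. Between 1.5-fold and 2-fold lay 61 higher probes, none in a liver list, and 58 lower ones, 4 in a liver list. Trim69 and the uncharacterised gene 1500002C15Rik are given as examples, chosen after their values were seen. Trim69, of a family of ubiquitin ligases, had 13.3 and 14.1 at 7.5 h, against 7.20 and 7.53 at 5 h, and 1500002C15Rik had 10.6 and 11.2 against 5.56 and 5.61. Probes with numbers above 8500 made up 75% of the 68 higher probes, against 21.2% of all tested probes and 9.77% of the 133 lower ones. The median difference was 0.114 for probes above that number, and -0.0035 for the rest. Of the 7 probes higher at 2-fold, 5 had numbers above 8500, among them S100a8, Ngp and Kdm5d. These 3 still met the rule after probes of like number were centred. Centring on probes of like number gave 6 higher probes at 2-fold, 5 of them among the 7, and 75 lower ones, 72 of them among the 75. Cts6, at 0.94, and probe 9581, at 0.83, no longer met the rule.

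The tested genes named next, deacetylases and other genes that the naming rule always includes, differed by less than 1.5-fold. Hdac8 and Cdkn2a, which did not pass the filter, are given above. Cdkn1a, a cell cycle inhibitor that deacetylase inhibitors are known to raise in cultured cells, had 3.08 and 3.17 at 7.5 h, against 2.68 and 2.63 at 5 h, a difference of 0.24. The deacetylases Hdac1, Hdac2 and Hdac3 had differences of 0.06, 0.09 and 0.04. The list of 10 tested deacetylases and sirtuins had a median of 0.01 and the 19 tested genes often reported to respond to deacetylase inhibitors one of 0.03. Insl5, a peptide hormone, had 6.75 and 6.62 at 7.5 h against 5.69 and 5.42 at 5 h. Ghrl, the ghrelin precursor, had 4.76 and 5.08 against 3.79 and 4.30, and the patterning factor Zic2 had 3.40 and 3.78 against 4.61 and 4.19. Zmynd8, a reader of acetylated histones, had 5.81 and 6.53 against 6.27 and 6.31. Barx2, a homeobox factor, had 18.7 and 17.7 at 7.5 h against 12.7 and 12.2 at 5 h, a difference of 0.55 ± 0.051.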

How the data were processed

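Per the labels, testis RNA of 3 mice per group was pooled and each of 5 pools was read on 2 CodeLink arrays. The deposited values are linear intensity values; their sorted values were identical on all 10 arrays, so they had been quantile normalised. No source used here names the scanner software, background correction or flags. Of 10012 probes, 115 had no values. A floor was set at the 5th percentile (0.0364), log2 was taken, and every array was brought to one median. Symbols were read from the platform table and from RefSeq (GRCm38.p6): 8975 probes matched by gene ID and 6 by symbol, 1 had several symbols and 1028 none. The array's genome build is unknown, so no probe coordinates are given. Each gene of a list was represented by its brightest probe.

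No test was run, since each time is 1 pool. The numbers of duplicate arrays do not pair arrays across pools. Members and the 35 lists were chosen with earlier results of these data known. Genes were named by a rule: up to 15 largest differences each way that met the size rule with a brighter pool above the median of tested probes, up to 4 of largest difference per list, every liver-list gene that met the rule, and a few always. Genes outside the rule, given as further members of a list or as neighbours of a named gene, were picked after their values were seen. Arrays have no counting depth; their number limits precision. The code of the size rule was run on simulated data, with planted differences beyond the limit and the array noise of the 5 h pool only. That run does not bear on calls near the limit, in dim probes or under the larger noise of the 7.5 h pool. Work used Python 3.11.15, numpy 2.4.6, pandas 2.3.3 and matplotlib 3.10.9.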

Additional observations from a re-analysis of the deposited data

How the results depend on the processing

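No paired analysis was possible because each time is 1 pool and the array numbers mark technical duplicates. The counts were 7 higher and 75 lower probes, 50 of them in liver lists. They did not change with no shift of the arrays, quantile normalisation of the 4 arrays, averaging over a gene's probes, or overlap of arrays allowed. The deposited values were already quantile normalised, so the shift and the further normalisation could not alter a call. Each called gene had 1 probe, so averaging could not alter its call either. Without a filter on dim probes 172 were higher and 206 lower, and with the lowest 50% left out 1 was higher and 20 lower, 19 in liver lists. An offset of 0.2153 before the logarithm gave 2 higher, both among the 7, and 69 lower, 60 of them among the 75. The 15 lower calls that ended with it were Itih2, Igfals, C4b, F10, Uox, Cyp1a2, Mug2, Lect2, Cpn1, Cyp2c39, Txk, Sgk2, Sec61a1 and probes 4246 and 10336, at -0.89 to -0.53. A limit of 1.5-fold gave 68 higher and 133 lower, and a limit of 3-fold gave 2 higher. Without the liver-list probes 25 were lower. Leaving out 1 array gave 9 to 19 higher (19 and 17 without array 1 or 2 of the 7.5 h pool, 12 without array 2 of the 5 h pool), 76 to 84 lower and 49 to 50 liver genes lower. With a filter over all 10 arrays, added after the data were seen, 48 were lower, 32 of them liver genes. The cause was not tested, except that filters change which probes enter. Reversal was scored only for list medians of at least 1 either way and for named genes that met the rule, and none reversed. Smaller medians could change sign: that of the cytokine list was -0.03, and 0.04 without the filter. Counted over all settings, 90 list medians and 103 named-gene values moved by more than the array spread, and 393 and 1876 did not. Values near or under the dim limit limit most folds, and variation between mice was not measured.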
